A study of Homo sapiens with 8 samples.

Results

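The origins of DNA replication in the first 20 Mb of chromosome 2, from the tip of the short arm, were examined in HCT116 cells that lack a subunit of the origin recognition complex (ORC). Origins were taken from the 3 count tables where their midpoint lay under 20 Mb on chromosome 2, which gave 360 of 42162 origins in the table of WT and ORC1KO, 545 of 44174 in that of WT and ORC2KO, and 415 of 46467 in that of WT and ORC5KO, on chromosomes 1 to 22, X, and Y. The stretch was picked because its reads were higher in ORC2KO than in WT, so the ORC2KO values describe the stretch and were not tested. Origins of chromosome 2 from 20 to 60 Mb, numbering 519, 530, and 545 in the same tables, served for comparison.

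HCT116 is a colon cancer cell line of epithelial type. All 4 lines were HCT116 p53-/- cells, and ORC1KO, ORC2KO, and ORC5KO had been made from them with CRISPR–Cas9, while WT carried no ORC mutation. Short nascent strands were sequenced (SNS-seq) in 2 replicates of each line, 8 samples in all. The tables merge the replicates, so no spread between replicates could be computed. Intervals of read ratios cover counting error only. Intervals of medians and of shares are taken over origins, which are not replicates. According to the study's methods and introduction, ORC1 and ORC6 stay on chromatin in ORC2KO, ORC2 to ORC6 in ORC1KO, and ORC1, ORC2, ORC3, and ORC6 in ORC5KO. The study's results also report less ORC1 on chromatin in ORC2KO and ORC5KO, which in its view could partly come from destabilized ORC1. Traces of a truncated ORC2 have been reported in ORC2KO by another group, but the study itself did not detect this protein. Whether each line is a single clone is not given in the sources used here.

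ORC binds DNA in G1 phase and, with CDC6 and CDT1, loads the MCM2–7 helicase as a double hexamer, which licenses the site to start replication in S phase. Short nascent strands are the DNA fragments just made at a start site, and their RNA primer protects them from lambda exonuclease, so that sequencing them maps origins in a population of cells. Origins in human cells are often rich in G and C and tend to lie near runs of G that can fold into a G-quadruplex.

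The stretches of DNA below belong to the origins on which the description turns, namely the origin with most WT reads, the origins with the highest and a low ratio of ORC2KO to WT reads, and the origin just before the computed end of the elevated stretch. Each is the central 300 bases of the origin, plus strand, hg38. Capitals mark runs of 3 or more G or of 3 or more C (GGG or CCC in this strand, which together cover both strands).

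Most WT reads, chr2:5705872-5706171, in an intron of the lncRNA ENSG00000242540 near SOX11: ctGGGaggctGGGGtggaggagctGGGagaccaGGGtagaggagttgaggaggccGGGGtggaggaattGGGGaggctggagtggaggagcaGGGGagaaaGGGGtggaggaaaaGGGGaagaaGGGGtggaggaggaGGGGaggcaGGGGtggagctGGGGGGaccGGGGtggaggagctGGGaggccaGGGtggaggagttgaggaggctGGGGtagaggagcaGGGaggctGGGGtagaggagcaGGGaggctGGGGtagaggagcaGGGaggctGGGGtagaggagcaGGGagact

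Highest ratio, chr2:10953753-10954052, outside genes: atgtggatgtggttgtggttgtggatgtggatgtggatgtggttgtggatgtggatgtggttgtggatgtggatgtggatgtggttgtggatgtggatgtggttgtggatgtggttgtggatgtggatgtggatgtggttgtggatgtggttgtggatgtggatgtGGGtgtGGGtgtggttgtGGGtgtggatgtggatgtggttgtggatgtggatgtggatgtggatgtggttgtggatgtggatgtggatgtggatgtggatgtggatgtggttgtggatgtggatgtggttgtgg

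Second lowest ratio, chr2:16127354-16127653, outside genes: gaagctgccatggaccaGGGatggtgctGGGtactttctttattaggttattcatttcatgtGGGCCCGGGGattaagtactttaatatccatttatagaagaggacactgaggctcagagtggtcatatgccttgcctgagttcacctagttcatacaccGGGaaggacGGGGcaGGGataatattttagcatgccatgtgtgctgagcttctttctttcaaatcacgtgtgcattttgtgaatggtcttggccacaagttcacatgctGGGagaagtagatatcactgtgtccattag

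Last origin before the computed end, chr2:23422299-23422598, in an intron of KLHL29: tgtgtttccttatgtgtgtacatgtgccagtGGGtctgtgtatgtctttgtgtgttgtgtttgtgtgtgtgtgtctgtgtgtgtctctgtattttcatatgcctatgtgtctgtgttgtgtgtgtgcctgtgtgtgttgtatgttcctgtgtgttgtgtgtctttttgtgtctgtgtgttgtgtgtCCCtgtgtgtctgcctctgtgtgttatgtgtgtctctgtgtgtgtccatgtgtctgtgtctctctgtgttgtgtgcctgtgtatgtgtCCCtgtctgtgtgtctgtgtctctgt

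The window of the most read origin holds 24 runs of G and 0 of C, on 1 strand only. The window of the origin with the highest ratio is a repeat of short TGTGG units with 3 runs of G, and the window before the computed end is rich in alternating T and G, with 1 run of G and 2 of C. Windows built in the same way held at least 1 such run in 99.3% of the 545 origins, in 99.4% of the 530 origins from 20 to 60 Mb, and in 99.2% of all 3310 origins of chromosome 2. At least 4 runs on 1 strand were found in 91.9%, 94.2%, and 93.1% of the same 3 sets, the last of which includes the stretch.

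Reads in ORC2KO were higher than in WT across nearly the whole set. Counts are given in RPM (reads of an origin per 1e6 reads counted in all origins of that line and table), and ratios as log2 fold of knockout over WT. The 545 origins held 73712 WT reads and 115591 ORC2KO reads, which was 1.11% of all WT reads in the table and 1.48% of all ORC2KO reads. A single origin had from 12 to 920 reads in WT (median 100) and from 60 to 1366 in ORC2KO (median 152). The log2 fold of the summed reads was 0.42, with a 95% Clopper–Pearson interval of 0.40 to 0.43, or 1.33-fold. In a population of cells, more cells using an origin, more strands from each cell, and more copies of the DNA cannot be told apart. All samples were SNS-seq, and the DNA copy number of each line was not tested.

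Over single origins the median log2 fold was 0.38 in ORC2KO (95% interval of the median 0.36 to 0.41, quartiles 0.22 and 0.58), against −0.05 for the origins from 20 to 60 Mb and −0.04 for all origins. Of the 545 origins, 517 (94.9%) had a log2 fold above 0, where 44.0% of all origins did. At least 1.5-fold up were 136 (24.95%), beside 4.66% of all origins, and at least 1.5-fold down were 0, beside 3.58%. Of the 136, 97 were among the 293 origins called in ORC2KO and not in WT, which are counted only because ORC2KO called them. Over all origins, 1673 of 14126 such origins were up. Among the 230 called in both lines 36 were up, beside 365 of 23592 over all origins. The interquartile range of the 545 origins was 0.37, close to the 0.36 of the origins from 20 to 60 Mb, so that the distribution lay higher as a whole rather than only in its upper tail. Taken about the median of the stretch itself, 42 origins (7.71%) were at least 1.5-fold up and 6 (1.10%) down, beside 5.26% and 2.86% of all origins taken about their own median.

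In the other lines the medians of the stretch lay close to 0, while the shares of origins at least 1.5-fold up were above those from 20 to 60 Mb. The 3 comparisons share the WT samples. In ORC1KO the 360 origins held 56695 WT and 59774 ORC1KO reads, and their median log2 fold was −0.02, with an interval of −0.06 to 0.03, against 0.01 from 20 to 60 Mb. There 173 (48.1%) lay above 0, beside 48.4% of all origins, 35 (9.72%) were at least 1.5-fold up, beside 7.04% of all and 4.43% from 20 to 60 Mb, and 13 (3.61%) were down, beside 3.95%. In ORC5KO the 415 origins held 62336 WT and 78411 ORC5KO reads, with a median of 0.01, an interval of −0.02 to 0.04, and −0.00 from 20 to 60 Mb. There 215 (51.8%) lay above 0, beside 49.4%, 17 (4.10%) were up, beside 2.08% of all and 0.917% from 20 to 60 Mb, and 3 (0.723%) were down, beside 0.68%. The log2 fold of the summed reads was 0.016 in ORC1KO (interval −0.00067 to 0.033) and 0.022 in ORC5KO (0.0063 to 0.037).

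**Figure D1:**
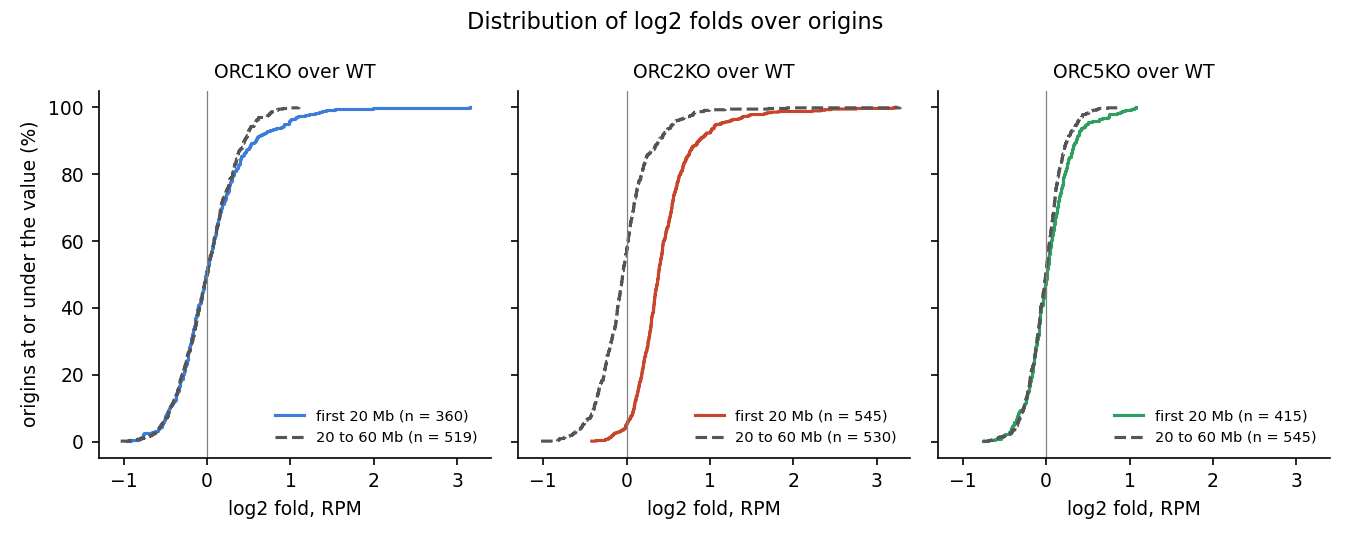
Cumulative share of origins (%, vertical) against log2 fold of knockout over WT in RPM (horizontal) in ORC1KO, ORC2KO, and ORC5KO, with solid lines for the first 20 Mb of chromosome 2 and dashed lines for 20 to 60 Mb. In ORC2KO the solid line lies to the right of the dashed line over nearly all its length (medians 0.38 and −0.05, highest values 3.23 and 3.28), while in ORC1KO and ORC5KO the lines nearly meet at their medians.

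For 312 origins of the stretch that matched 1 origin in each of the other tables, the median log2 fold was 0.34 in ORC2KO, −0.04 in ORC1KO, and −0.02 in ORC5KO. The 399 such origins from 20 to 60 Mb had medians of −0.10, −0.07, and −0.04 in the same order. Among all windows of 20 Mb with at least 50 origins, the stretch had the highest median of 154 in ORC2KO, followed by the first 20 Mb of chromosome X at 0.18. It ranked 91 of 153 in ORC1KO and 51 of 154 in ORC5KO. Shifts of this size were not limited to the stretch, as the lowest window median in ORC2KO was −0.95. Window medians above 0.2 numbered 1 in ORC2KO, 11 in ORC1KO (highest 0.50), and 0 in ORC5KO (highest 0.12).

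In steps of 1 Mb, the higher reads in ORC2KO ran evenly along the stretch. All 20 steps had a median above 0, and all 20 had an interval of the summed reads above 0. The medians ranged from 0.30 to 0.48 over the 16 steps with 10 or more origins, and from 0.23 to 0.51 when the 4 steps with 4 to 6 origins were included. The step from 10 to 11 Mb held most origins, 73, of which 72 lay above 0, with 10040 WT and 16464 ORC2KO reads and a median of 0.40. The first step at the end of the chromosome held 40 origins with a median of 0.40, and the last, from 19 to 20 Mb, held 14 with a median of 0.31. No step of the 23 from 23 to 60 Mb with 10 or more origins had a median above 0.04, and the lowest of them had −0.24.

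In ORC1KO the step medians in the first 20 Mb ranged from −0.13 to 0.27 over 12 steps, and in ORC5KO from −0.04 to 0.08 over 11 steps. Further along chromosome 2, 3 steps in ORC2KO with at least 10 origins had a median above 0.2. They began at 90, 110, and 132 Mb with medians of 0.24, 0.27, and 0.33, and the lower quartile of each lay below 0, with 6 of 11, 7 of 13, and 11 of 20 origins above 0.

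**Figure D2:**
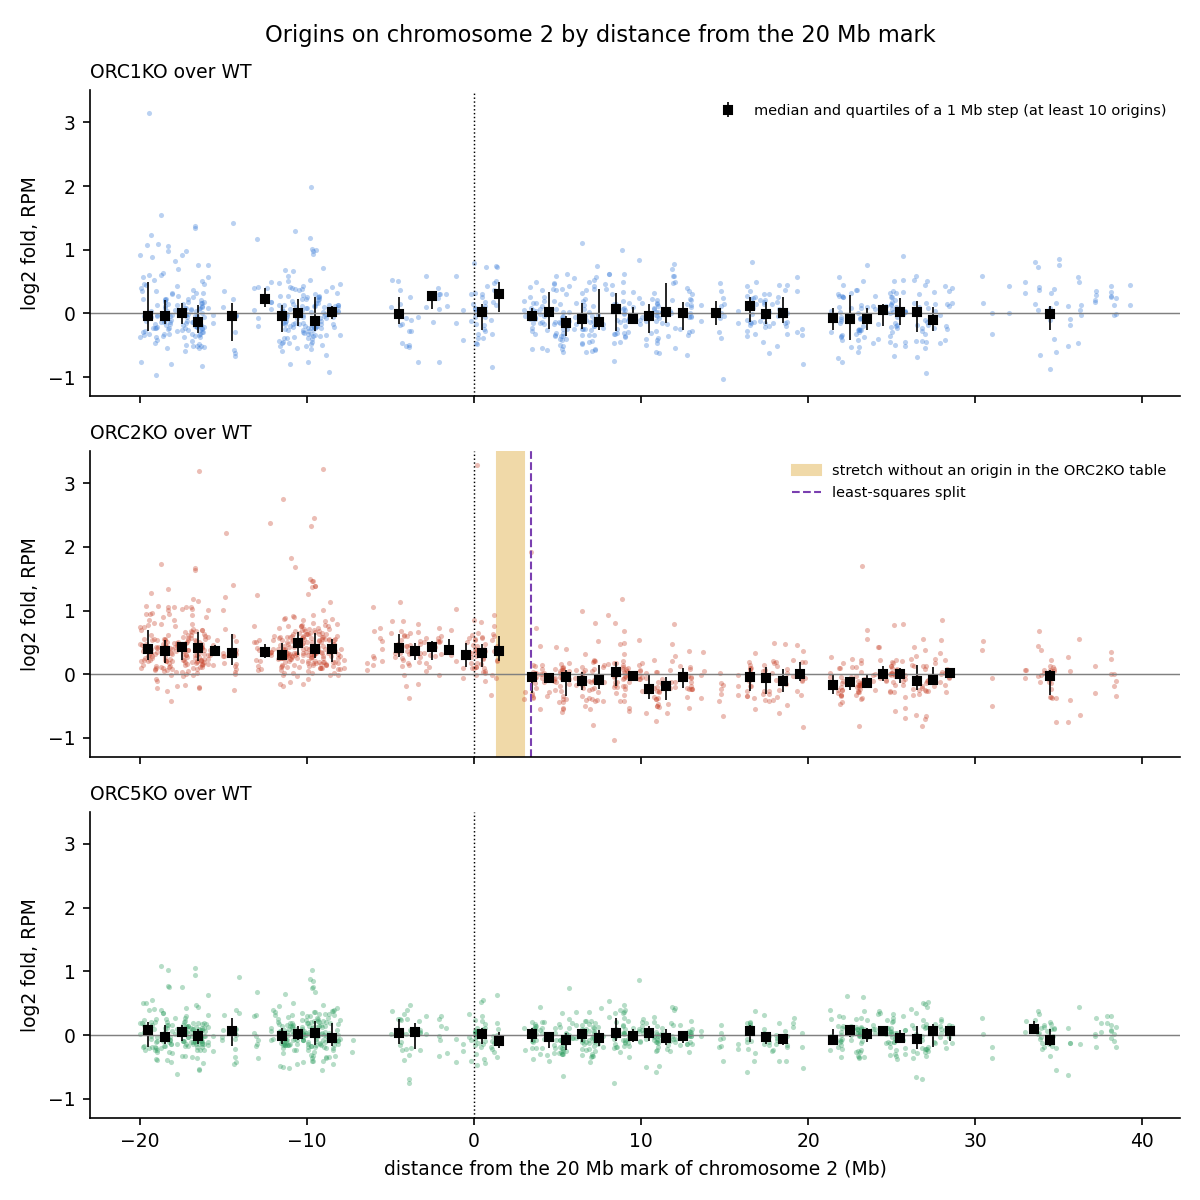
Log2 fold of knockout over WT in RPM (vertical) of each origin (points) against its distance from the 20 Mb mark of chromosome 2 in Mb (horizontal), with squares and bars for the median and quartiles of 1 Mb steps holding at least 10 origins. In ORC2KO every square up to the origin-free stretch (shaded) lies at 0.30 or higher and those beyond it lie at 0.04 or lower, and the dashed line marks the least-squares split.

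The elevated stretch did not end at 20 Mb. Just inside that mark, the origin chr2:19970339-19970820 had 75 WT and 121 ORC2KO reads (log2 fold 0.46), chr2:19976090-19976548 had 53 and 112 (0.85), and chr2:19996437-19996836 had 77 and 97 (0.10). Just outside it, chr2:20082554-20082910 had 106 and 180 reads (0.53), chr2:20083812-20084393 had 153 and 236 (0.39), and chr2:20087366-20088054 had 210 and 364 (0.56). The origins on both sides of 20 Mb were thus higher in ORC2KO, and the steps from 20 and 21 Mb had medians of 0.34 and 0.37 over 29 and 13 origins.

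The split that left the least squared deviation over the origins from 0 to 60 Mb fell at 23.45 Mb, in an intron of KLHL29. It lay just beyond chr2:23422154-23422744, with 591 origins on the left (median 0.38, 93.9% above 0) and 484 on the right (median −0.06, 39.5% above 0). It rested on 1 origin. The origin left of it, the T- and G-rich one printed above, had 22 WT and 98 ORC2KO reads and a log2 fold of 1.92, while the 3 origins before it had −0.39, −0.28, and −0.05. The 3 origins right of it had −0.09, −0.30, and −0.33. Without the T- and G-rich origin the split moved to 22.21 Mb, the middle of a stretch of 1.63 Mb that holds no origin of WT or ORC2KO, and the least absolute deviation with that origin kept gave 22.21 Mb as well.

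The last origin before the origin-free stretch was chr2:21388489-21389042, with 71 WT and 96 ORC2KO reads and a log2 fold of 0.20. The first after it was chr2:23023145-23023545, with 79 and 71 reads and −0.39. Of the 42 origins from 20 Mb to the origin-free stretch, 37 lay above 0, with a median of 0.34 and quartiles of 0.13 and 0.53. The origin-free stretch holds 0 protein-coding genes of GENCODE release 44, and 2 origins were called in it in ORC1KO and 2 in ORC5KO. Over the split rules tried, the computed end ranged from 21.16 to 23.45 Mb, and the least-squares split stayed at 23.45 Mb with GC correction or with origins from 0 to 40 Mb alone. Taking ORC2KO over ORC1KO or over ORC5KO, in which WT reads play no part, over 711 matched origins gave 21.16 and 21.28 Mb, with medians of 0.40 and 0.45 to the left and −0.08 and −0.04 to the right.

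The same split in the other lines removed little of the spread. It removed 31.0% of the squared deviation in ORC2KO, 1.80% in ORC1KO with the split at 0.761 Mb, and 0.959% in ORC5KO with the split at 10.75 Mb. Within the elevated stretch of ORC2KO, the best further split, at 11.55 Mb, parted means of 0.47 and 0.38.

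The number of called origins in the stretch was highest in ORC2KO. Calls rest on the same reads as the ratios, so they are a description as well. The lists of called origins held 254 in WT (12.7 per Mb), 293 in ORC1KO, 525 in ORC2KO (26.2 per Mb), and 371 in ORC5KO. The ratio of ORC2KO to WT calls was 2.07 in the first 20 Mb and 1.31 from 20 to 60 Mb, while the whole lists held 37813 and 30197. For ORC1KO the ratios to WT were 1.15 in the first 20 Mb, 1.21 from 20 to 60 Mb, and 1.11 over the whole lists, and for ORC5KO 1.46, 1.39, and 1.37.

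A large share of the WT origins was kept in ORC2KO. Of the 254 WT origins of the stretch, 232 (91.3%, 95% Wilson interval 87.2% to 94.2%) were called in ORC2KO too, against 249 of 337 (73.9%, 68.9% to 78.3%) from 20 to 60 Mb and 78.6% of all. In ORC1KO the shares were 73.6% and 66.5%, beside 71.1% of all WT origins. In ORC5KO they were 82.3% and 76.9%, beside 82.6% of all, so the stretch was near the share of all there. WT origins with a single partner in ORC2KO were wider there, with a median width ratio of 1.10 over 226 pairs, against 1.04 over 249 pairs from 20 to 60 Mb.

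**Figure D3:**
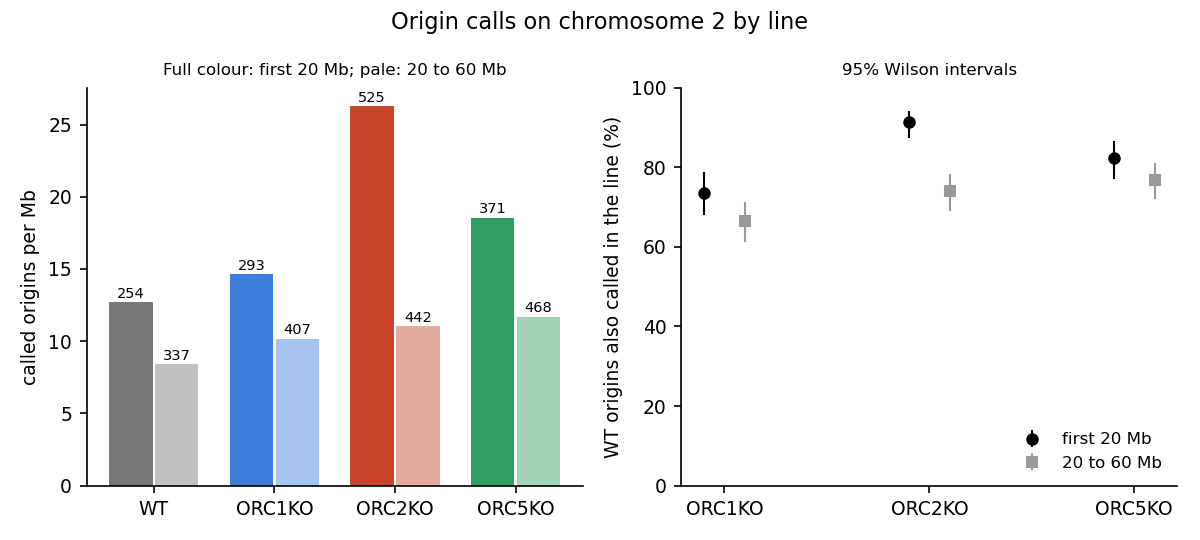
Left, called origins per Mb (vertical, bars from 0) in the 4 lines in the first 20 Mb of chromosome 2 (full colour) and from 20 to 60 Mb (pale), with the number of origins above each bar. Right, share of WT origins also called in each knockout line (%, vertical) with 95% Wilson intervals, which is highest, at 91.3%, for ORC2KO in the first 20 Mb.

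The reads differed in the same way whichever line had made the call. Of the 545 origins, 230 were called in both WT and ORC2KO and had a median log2 fold of 0.33, against −0.08 for such origins from 20 to 60 Mb. Called in ORC2KO and not in WT were 293 (53.8%), beside 32.0% of all origins, with a median of 75 WT and 122 ORC2KO reads and a log2 fold of 0.46 against 0.09. Called in WT and not in ORC2KO were 22 (4.04%), beside 14.6%. Even these, which ORC2KO had lost as calls, had a median of 0.17 and 15 of 22 above 0, where the 88 from 20 to 60 Mb had −0.28 and 15 above 0.

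In ORC1KO, 107 origins of the stretch (29.7%) were called in ORC1KO only, beside 28.6% of all, and 67 (18.6%) in WT only, beside 20.7%. In ORC5KO, 163 (39.3%) were called in ORC5KO only, beside 35.3%, and 45 (10.8%) in WT only, beside 11.3%.

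Every class of origin examined in ORC2KO had a higher median in the stretch than from 20 to 60 Mb. By quartile of GC content, from low to high, the medians in the stretch were 0.48, 0.38, 0.36, and 0.27, which was 0.46, 0.44, 0.46, and 0.33 above the same quartiles from 20 to 60 Mb. By quartile of mean RPM they were 0.51, 0.37, 0.32, and 0.39, against −0.02, −0.08, −0.06, and 0.01 from 20 to 60 Mb. Absolute GC skew, the imbalance of G and C on a strand, gave 0.35, 0.33, 0.35, and, in the most skewed quartile of 162 origins, 0.51. The same quartiles had −0.04, −0.08, −0.05, and −0.02 from 20 to 60 Mb, and −0.07, −0.08, −0.07, and 0.10 over all origins. The most skewed quartile was thus the highest over all origins too.

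Origins at the start of protein-coding genes (within 1 kb) had the smallest difference. The 23 of them had a median of 0.21 (interval 0.11 to 0.37), against −0.05 for the 47 from 20 to 60 Mb. The 204 in gene bodies had 0.40 (interval 0.36 to 0.43), and the 318 outside genes 0.38. Gene starts made up 4.22% of the origins of the stretch, 8.87% from 20 to 60 Mb, and 9.69% of all, and origins outside genes made up 58.3%, 41.5%, and 40.3%. GC content was 52.4% in the median, against 50.6% from 20 to 60 Mb, and width 547 bp against 516.5 bp.

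**Figure D4:**
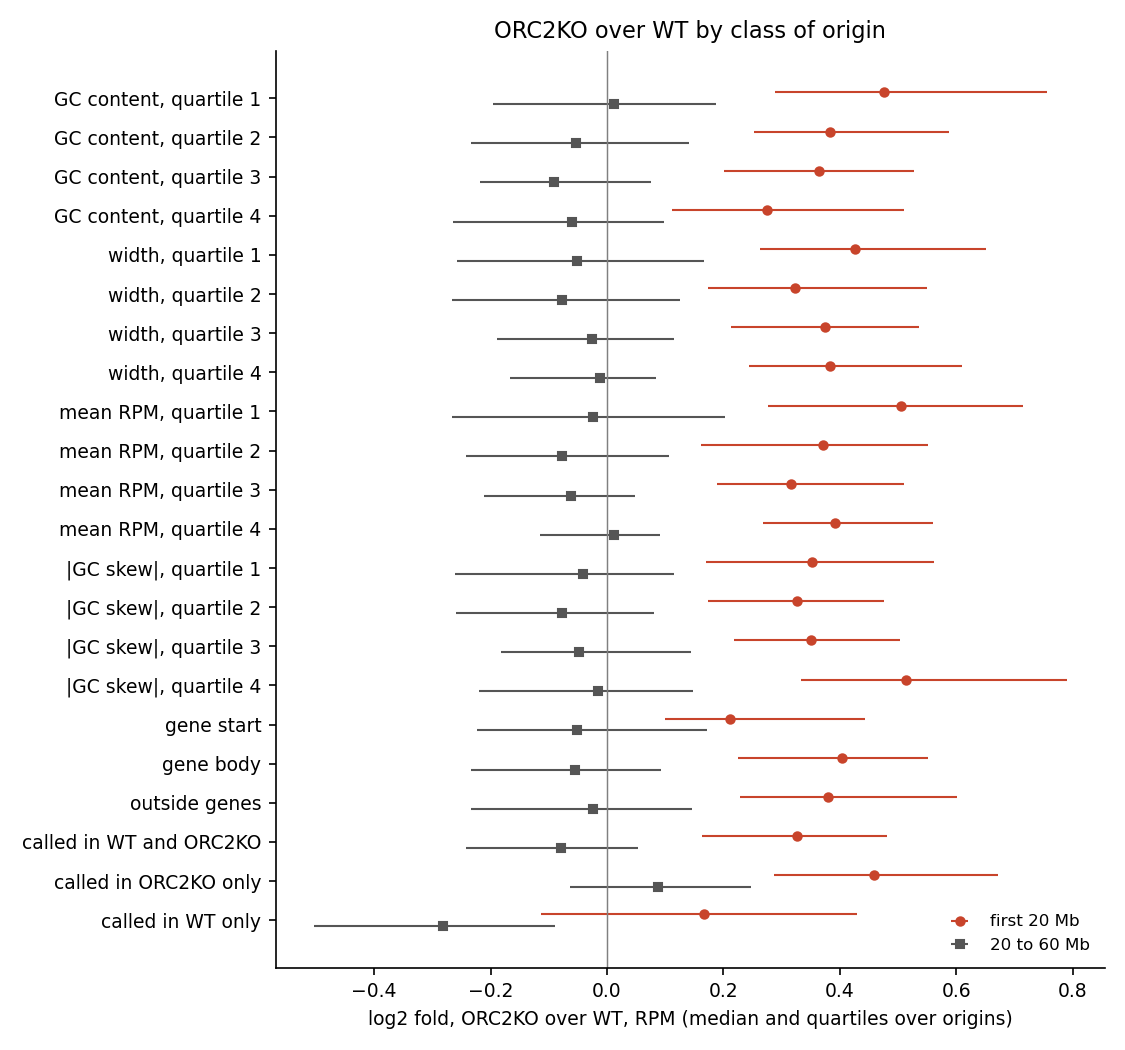
Median log2 fold of ORC2KO over WT in RPM (horizontal, bars are quartiles over origins) by class of origin (vertical), in the first 20 Mb of chromosome 2 (circles) and from 20 to 60 Mb (squares), with quartile limits set on all origins. The circle lies to the right of the square in every class, and gene starts (0.21) and origins called in WT only (0.17) have the lowest circles.

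The 5 highest ratios in ORC2KO, among origins with at least 100 reads in both lines together, belonged to origins with few WT reads. The origin chr2:10953690-10954115, whose centre is printed above, lay outside genes and had 12 WT and 132 ORC2KO reads, a log2 fold of 3.23 (interval 2.37 to 4.21), and a GC skew of 1.0, having no C in its plus strand. The origin chr2:3527308-3528128 had 23 and 247 reads (3.19) with a GC skew of 0.88, and chr2:8596934-8597387, with ID2 as the nearest protein-coding gene, had 14 and 111 (2.75) with 0.93. The other two, chr2:10433203-10433666 and chr2:7767852-7768433, had 31 and 199 reads (2.45) and 21 and 128 reads (2.37), with GC skews of 0.77 and −0.77. All 5 were called in ORC2KO only and lay outside genes.

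The wider set of 42 origins at least 2-fold up was of the same kind. Of these, 37 (88.1%) were called in ORC2KO and not in WT, 28 (66.7%) were in the most skewed quartile, and 0 lay at a gene start. The other 503 origins had 50.9% and 26.6%, and the median of WT reads was 49.5 in the 42 and 102 in the 503. As origins in this set were chosen by a low WT count relative to ORC2KO, these shares are a description.

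At the other end, the lowest ratio was that of chr2:1842610-1843008, in a UTR of MYT1L, with 100 WT and 88 ORC2KO reads and a log2 fold of −0.42 (interval −0.85 to 0.01). The next was chr2:16127316-16127691, with 68 and 62 reads and −0.37 (−0.89 to 0.15). The intervals of all 5 lowest origins included 0. The MYT1L origin had −0.80 in ORC1KO and −0.15 in ORC5KO.

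The most read origins showed the difference with little counting error. The origin chr2:5705172-5706872, near SOX11, had 920 WT and 1366 ORC2KO reads (log2 fold 0.34, interval 0.21 to 0.46), with −0.04 in ORC1KO and 0.09 in ORC5KO. In an intron of TRAPPC12, chr2:3436481-3438615 had 883 and 1195 reads (0.20, interval 0.08 to 0.33), with −0.22 and −0.23 in the other lines. Outside genes, 9760 bp from GRHL1, chr2:10012038-10013455 had 693 and 1256 reads (0.62, interval 0.49 to 0.76), with 0.25 and 0.30. All 5 of the most read origins had an interval above 0 in ORC2KO and were called in all 4 lines.

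The genes of the stretch were followed through 29 genes in 3 lists, with 18 genes from 20 to 60 Mb for comparison. The stretch was picked on its ORC2KO reads and the genes with earlier results known, so the ORC2KO counts of genes describe the stretch and are not a test. In ORC2KO, 19 of the 29 held at least 1 origin, and the summed reads of their origins were higher than in WT in 18 of 19, with an interval above 0 in 17 and below 0 in 0 (median log2 fold 0.46). Of the 18 comparison genes, 10 held an origin, and 2 were above 0, with an interval above 0 in 0 and below 0 in 1 (median −0.07). In ORC1KO 12 of 19 genes and in ORC5KO 8 of 18 genes of the stretch were above 0, with medians of 0.05 and −0.02. The tables differ in which origins they hold, so a gene's sums rest on different origins in each.

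Among the genes for replication, repair, and nucleotide supply, 3 of 8 held an origin and all 3 had an interval above 0. RRM2, the small subunit of ribonucleotide reductase, which makes deoxynucleotides, held 5 origins with 472 WT and 894 ORC2KO reads (0.69, interval 0.53 to 0.85). It was also higher in ORC1KO, with 0.84, and in ORC5KO, with 0.35 and all 3 intervals lay above 0. RNASEH1, which removes RNA from RNA–DNA hybrids, had 258 and 384 reads (0.34), and SMC6, of the SMC5/6 complex, had 94 and 149 (0.43).

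Of the transcription factors, 7 of 9 held an origin and 6 had an interval above 0. MYT1L, a factor of neurons, spans 542.6 kb and held 22 origins, 19 of them above 0, with 2590 and 3881 reads (0.35, interval 0.28 to 0.42). TAF1B, of the RNA polymerase I factor SL1, had 166 and 297 reads (0.61), and KLF11, a zinc finger protein, had 380 and 614 (0.46). OSR1, a zinc finger protein of kidney and limb development, had 162 and 183 reads (−0.06, interval −0.37 to 0.26) and was the exception among the 19 genes. MYCN held no origin in any table.

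Of the genes for signalling, adhesion, and trafficking, 9 of 12 held an origin and 8 had an interval above 0. ASAP2, a GTPase-activating protein for Arf, held 10 origins with 1630 and 2759 reads (0.53, interval 0.44 to 0.61), where ORC1KO had 0.18 and ORC5KO −0.04. HPCAL1, of the neuronal calcium sensor family, held 11 origins with 1247 and 2203 reads (0.59, interval 0.49 to 0.69), all 11 above 0, with 0.13 in ORC1KO and 0.13 in ORC5KO. RNF144A, an E3 ubiquitin ligase, had nearly the same value in ORC1KO and ORC2KO, 0.59 in each.

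**Figure D5:**
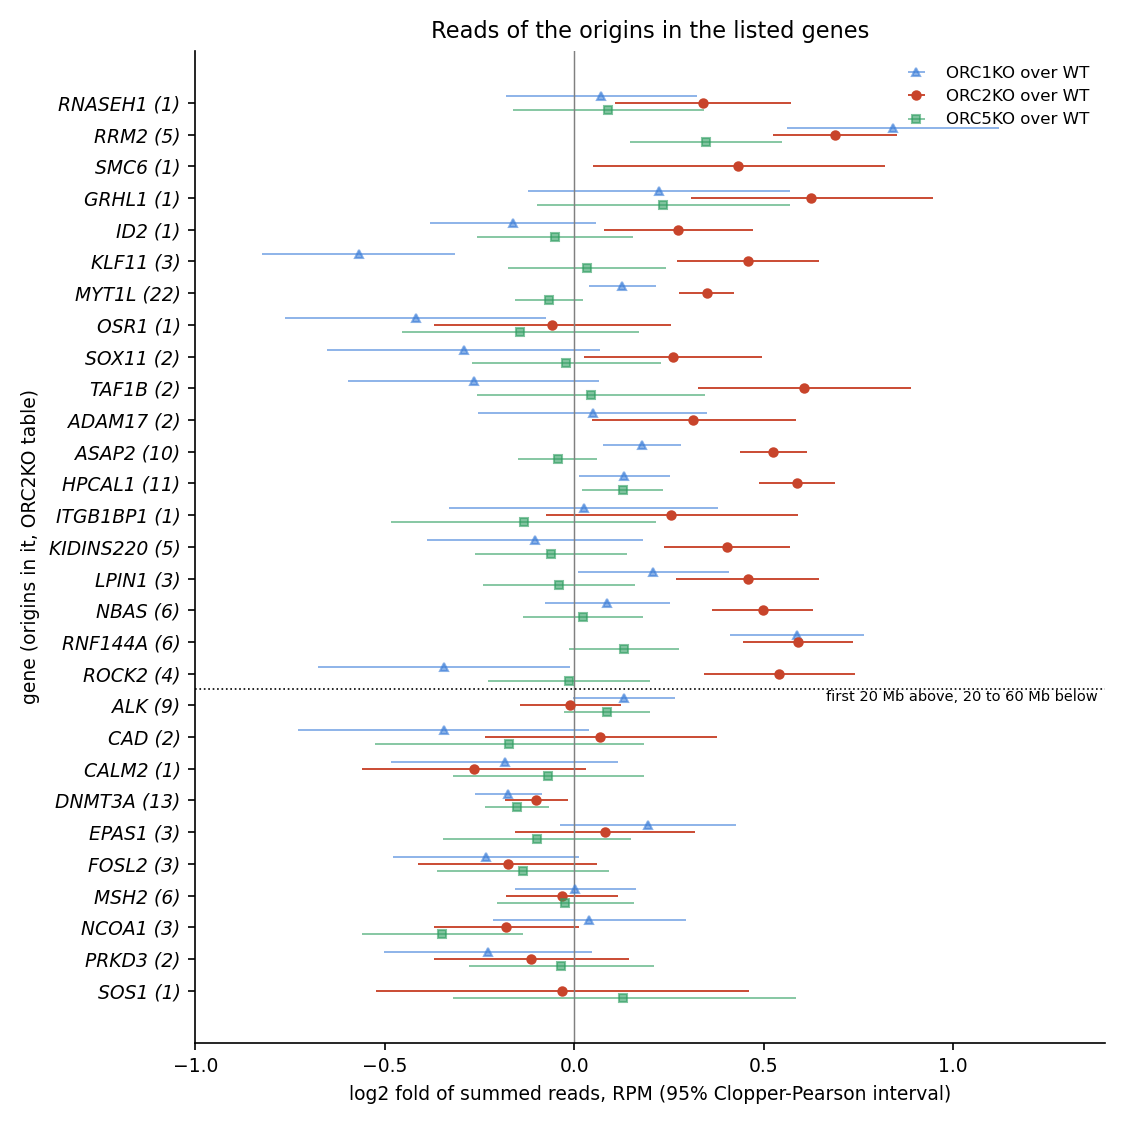
Log2 fold of the summed reads of all origins in a gene, knockout over WT in RPM, with 95% Clopper–Pearson intervals (horizontal), for the listed genes that hold an origin in the ORC2KO table (vertical, number of origins in parentheses), in ORC1KO (triangles), ORC2KO (circles), and ORC5KO (squares). Above the dotted line, 18 of 19 circles lie to the right of 0, and below it, in genes from 20 to 60 Mb, 2 of 10 do.

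At the gene starts themselves the median log2 fold in ORC2KO was lower than over the whole stretch, as in the class of all gene starts. Of the 29 genes, 8 had an origin there, with a median log2 fold of 0.22 in ORC2KO, −0.41 in ORC1KO, and −0.15 in ORC5KO, and 4 of 8 had an interval above 0 in ORC2KO. The origin at the start of ID2, an inhibitor of basic helix-loop-helix factors, had 204 WT and 311 ORC2KO reads (0.37, interval 0.12 to 0.64). At NBAS, which acts in transport between Golgi and endoplasmic reticulum, there were 309 and 460 reads (0.34). At SOX11, a developmental transcription factor, there were 205 and 246 reads (0.03, interval −0.24 to 0.30), and at KLF11 168 and 188 (−0.07). The summed reads of both genes lay above 0. The SOX11 sum leaves out its start origin, which lies before the gene, while the KLF11 sum includes its own. The 6 comparison genes with an origin at the start had a median of −0.24 in ORC2KO, and 0 had an interval above 0. That median, too, was lower than the −0.05 of all origins from 20 to 60 Mb.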

How the data were processed

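SNS-seq was done by the authors in 2 replicates of WT, ORC1KO, ORC2KO, and ORC5KO HCT116 p53-/- cells. Per the labels' notes on processing, reads were trimmed with Trim Galore 0.6.4 and handled with Bowtie, MACS2, and bedtools on GRCh38, and per the methods an origin was a peak found in both replicates. The authors deposited 4 lists of origin positions, with no height or score, and 3 tables of read counts for WT and 1 knockout in the joined origins of both lines, replicates merged and values not normalized. The counting tool and the handling of duplicate reads are not given in the sources used here. Reads that are PCR copies are not independent molecules, so intervals of read ratios cover counting error only and may be too narrow. All listed positions lay within the hg38 chromosomes.

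Total counts per line and table ranged from 6416892 to 8523971, contigs other than chromosomes 1 to 22, X, and Y included, and these totals scaled counts to RPM. Members and gene lists were chosen with earlier results of these data known. Groups came from sample titles. Folds were log2 ratios of RPM with no pseudocount and no filter on low counts. An origin was up or down at 1.5-fold, and called in a line when it overlapped an origin of its list by 1 bp. Ratios have Clopper–Pearson intervals, shares Wilson intervals, and medians binomial intervals, at 95%, the last 2 taken over origins as if these were independent. No test was run, because the replicates are merged and the stretch was picked on the ORC2KO reads. Gene positions came from GENCODE release 44 and sequences from hg38. Named were the 5 highest and the 5 lowest ratios with at least 100 reads, the 5 origins with most WT reads, 3 origins on either side of 20 Mb and of the split, the origin with most WT reads at the start of each listed gene, and 4 sequences, with the next origin taken where a window met a UTR (a further sequence, planned for the origin after the split, is not reported here). Sums over whole listed genes, the description of origins at least 2-fold up, the split without 1 origin, the folds about the median of the stretch, and the differences taken on either side of the split were added after the data were seen. Alternatives were other scalings (edgeR 4.0.16 TMM, size factors), filters at 50 and 200 reads, GC correction by a running median of 1001 origins, subsets, thresholds, and split rules. The scripts (Python 3.11.15, pandas 2.3.3, scipy 1.17.1) were tested on simulated data.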

Additional observations from a re-analysis of the deposited data

How the results depend on the processing

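Of 106 alternative values, 73 stayed within the limits set for the value (1 interval for a median, 1.5 times for a count) and 33 moved. In ORC2KO the median fold and the difference from 20 to 60 Mb kept their sign. In ORC1KO the fold ranged from −0.04 to 0.03 and the difference from −0.02 to 0.06, so both signs occurred. The same held in ORC5KO, with −0.03 to 0.03 and −0.0009 to 0.04. The median difference between the first 20 Mb and 20 to 60 Mb in ORC2KO stayed between 0.41 and 0.44 under 10 alternatives, and the scaling moved the median of all origins by at most 0.04. The median fold of the stretch in ORC2KO was 0.42 with size factors, 0.42 with TMM, 0.42 as summed reads, 0.42 with GC correction, 0.33 in origins called in both lines, and 0.34 in origins found in each other table. In ORC5KO these last 2 subsets gave −0.034 and −0.016, and GC correction moved the ORC1KO difference to 0.058. Counts moved with the threshold. At a lower threshold than 1.5-fold (log2 fold 0.32), 72 origins were up and 64 down in ORC1KO, 332 and 2 in ORC2KO, and 50 and 38 in ORC5KO. At 2-fold, 14 were up and 0 down in ORC1KO, 42 up in ORC2KO, and 4 up and 0 down in ORC5KO. With at least 200 reads, 17 were up and 8 down in ORC1KO, 82 up in ORC2KO, and 9 up and 0 down in ORC5KO. The shares of all origins at these thresholds and this filter are not given here. These counts therefore show only how the numbers change with the setting, not how the stretch compares with all origins. About the median of the stretch, 42 were up and 6 down in ORC2KO. The split at 23.45 Mb moved to 22.21 Mb by least absolute deviations and without the origin before it, to 22.39 Mb with at least 200 reads, to 22 Mb as the last elevated step, and to 21.16 and 21.28 Mb for ORC2KO over ORC1KO and over ORC5KO. For the counts, the change follows from the thresholds and from fewer origins. For the medians, and for the splits other than the one without that origin, the cause was not tested. No paired analysis was possible because the tables merge the replicates. No replicate could be left out for the same reason. Counting error alone gave a typical SD of 0.19 on the log2 scale for a single origin of the stretch in ORC2KO, so ratios of single origins with few reads rest on wide intervals. The observed SD of the log2 fold over the origins of the stretch was 0.41. Origins thus spread more widely than counting error alone, and the intervals of read ratios do not cover that further spread.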
